A study of Mus musculus with 20 samples.

Results

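Ependymal cells, the ciliated cells that line the central canal of the spinal cord, were the 707 cells that the authors' metadata place in cluster 6, of 21016 cells in all (3.36%). The cells came from 6 single-cell libraries of spinal cord, 1 for each combination of 3 stages (sham, 7 and 28 days post-injury, dpi) and 2 diets. The study asked how microglia shape the response of other spinal cord cells to injury, and depleted microglia with PLX5622, an inhibitor of the CSF1 receptor on which microglia depend for survival. Each condition was thus measured in 1 library.

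All mice were female C57BL/6J, 8 to 10 weeks old. Vehicle mice ate control chow. PLX5622 mice ate chow with 1200 ppm PLX5622. Both diets began 2 weeks before surgery and continued to the end point. Surgery was a laminectomy at T9 alone in sham mice or with a 75 kdyne contusion in injured mice. Per the labels each sham library covers both 7 and 28 days after surgery, so the sham is not matched to 1 day. Each library was a pool of 3 to 4 mice, and the tissue was unperfused cord around the laminectomy, depleted of myelin and dead cells after dissociation. Differences between mice of a pool cannot be seen, and a difference between 2 libraries cannot be told apart from a difference between 2 preparations. For that reason no test was made and no p-value is given.

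Ependymal cells are radial, epithelium-like glia. Each bears motile cilia that move cerebrospinal fluid, and the ciliary genes are switched on by the transcription factor Foxj1 together with RFX factors, which bind a sequence called the X-box. In the spinal cord these cells also carry neural stem cell genes, and they are known to divide and to give rise to glial progeny after a lesion. They are not part of the myeloid lineage.

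There were 76, 173 and 275 ependymal cells in the sham, 7 dpi and 28 dpi vehicle libraries, and 47, 52 and 84 in the matching PLX5622 libraries. They held 370587 to 769383 unique molecular identifiers (UMIs, 1 per captured RNA molecule) per library. The median cell held 4444.5 UMIs in sham, 2281 at 7 dpi and 1866 at 28 dpi under vehicle, and 6145, 7093 and 3053 under PLX5622. Cells from injured vehicle cords were thus the shallowest. Unless cells were thinned, the share of cells with a UMI of a gene depends on depth. Shallower cells show a lower share at an equal level. Levels are given as CPM, the UMIs of a gene per 1000000 UMIs of the ependymal cells of a library. A pair of values in parentheses after a level, a share or a ratio is the exact 95% interval, which covers counting error only and no spread between mice. A difference between 2 libraries is given as the log2 ratio of their CPM. A gene was called past the fold where that ratio was 1 or more, or -1 or less, if the pair of libraries held 50 or more of its UMIs.

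The label held up against the markers that define these cells. Tmem212 and Ccdc153, of motile ciliated cells, had a summed level of 1162 and 1416 CPM in cluster 6, and no more than 2.25 and 3.58 CPM in any other cluster. Foxj1 stood at 620.5 CPM against 9.46 CPM in astrocytes, the next highest cluster. Dynlrb2, a dynein light chain, stood at 649.5 CPM against 2.51 CPM. Nnat, a small membrane protein of neuroendocrine and ependymal cells, stood at 5625 CPM against 376 CPM in the oligodendrocyte lineage. Of the 707 cells, 703 (99.4%) held at least 1 UMI of these 5 genes. A UMI of Ccdc153 was found in 83.5% of ependymal cells (median depth 2675 UMIs) and in 0.513% of astrocytes (1435.5 UMIs), 0.186% of endothelial cells (2152 UMIs) and 0.262% of T cells (1692.5 UMIs). Since the cells were clustered on these genes, the markers check the label and are no finding. Ttr, a product of choroid plexus, and Pkd2l1, the channel of neurons that contact cerebrospinal fluid, were at 0 UMIs in all 6 libraries. Folr1, a folate receptor listed for choroid plexus, was at 174 CPM in ependymal cells and at no more than 1.79 CPM in any other cluster.

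Other cell types left traces that bear on what follows. The 4 neutrophil markers summed to 1607 CPM, the 6 macrophage markers to 2987 CPM and the 8 astrocyte markers to 753 CPM, while the 4 T cell markers in the table summed to 3.46 CPM and the 6 endothelial markers to 56.7 CPM. Between libraries, 44 cell barcodes occurred 2 times, which touched 5 ependymal cells, and 1 barcode was ependymal in both. The methods state an upper limit of 3000 genes per cell, but 716 cells of the table held more, up to 8982. Of those, 109 were ependymal, between 13 and 26 in each library. Cells with the highest doublet scores, a fixed 0.8% per 1000 barcodes of a library, were marked as doublets. They held 65 ependymal cells, of which 25 and 38 came from the 7 and 28 dpi vehicle libraries, which had the most cells.

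The 5 markers differed between libraries by less than the fold. Under vehicle, Ccdc153 stood at 1737 CPM in sham, 1172 at 7 dpi and 1248 at 28 dpi. Tmem212 stood at 1311 CPM in sham, 878 at 7 dpi and 1135 at 28 dpi. Foxj1 stood at 652 CPM in sham, 492 at 7 dpi and 555 at 28 dpi, and under PLX5622 at 648 CPM in sham, 797 at 7 dpi and 665 at 28 dpi. The injured vehicle libraries were the lowest of the 6 for Foxj1 and Dynlrb2, and Nnat was lowest at 28 dpi under vehicle (6362, 5415, 3911, 6773, 6989 and 5587 CPM in sham, 7 dpi and 28 dpi vehicle, then PLX5622).

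**Figure D1:**
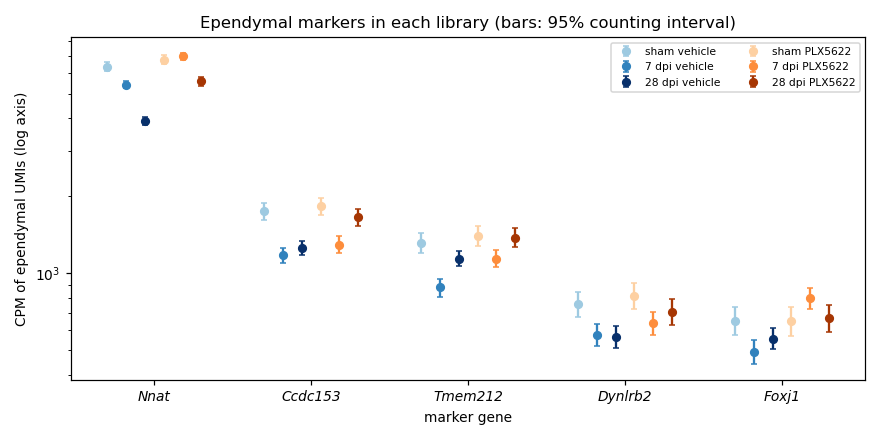
The level of each of the 5 ependymal markers (CPM of ependymal UMIs, log axis) is shown for the 6 libraries, in blue for vehicle and orange for PLX5622, darker with time after injury. Points are 1 library each and bars are 95% counting intervals. Within each marker the libraries stay inside a 2-fold range, with Nnat between 3911 and 6989 CPM.

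To show the regulatory sequence behind the ciliary genes, the X-box was searched in the 250 bases before the start of each gene, in promoter sequences from RefSeq (assembly GRCm38.p6). The motif was spelled GTTNCC, then 0 to 3 bases, then GGNAAC. It is its own reverse complement, so 1 search reads both strands. It was present in 8 of 121 promoters of ciliary genes (6.61%, 2.90, 12.6) and in 213 of all 27025 promoters (0.788%). Of the 5 markers, Foxj1 was not searched. No match was found for Tmem212, Ccdc153, Dynlrb2 or Nnat, which says only that these letters are not in that window. Either arm of the motif, GTTGCC or GGCAAC, was in 30.6% of ciliary and 11.8% of all promoters, and in those of Ccdc153 and Dynlrb2. The windows around the 8 matches are given below on the gene's strand, with the motif in capitals. Bbs7 is a subunit of the BBSome, the coat that sorts cargo in cilia, and Lztfl1 binds the BBSome and regulates its traffic. Ift57 and Ttc26 carry cargo along the cilium. Iqca and Dydc1 are listed with the radial spokes, Ccdc151 with the docking of dyneins and Cep41 with the centriole.
Bbs7, chr3:36613477-36613530, minus strand: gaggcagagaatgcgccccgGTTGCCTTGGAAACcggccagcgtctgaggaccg
Lztfl1, chr9:123717755-123717809, minus strand: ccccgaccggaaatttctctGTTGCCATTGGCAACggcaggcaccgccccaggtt
Ift57, chr16:49699214-49699266, plus strand: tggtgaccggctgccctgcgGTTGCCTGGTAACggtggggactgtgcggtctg
Ttc26, chr6:38381471-38381523, plus strand: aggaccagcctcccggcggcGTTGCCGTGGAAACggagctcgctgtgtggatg
Iqca, chr1:90153503-90153556, minus strand: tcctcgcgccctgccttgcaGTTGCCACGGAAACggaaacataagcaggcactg
Dydc1, chr14:41072832-41072884, plus strand: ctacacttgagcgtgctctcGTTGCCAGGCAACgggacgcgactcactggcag
Ccdc151, chr9:22002635-22002688, minus strand: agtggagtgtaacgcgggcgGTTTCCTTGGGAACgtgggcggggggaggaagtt
Cep41, chr6:30693846-30693900, minus strand: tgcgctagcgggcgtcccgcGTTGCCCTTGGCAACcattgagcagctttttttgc

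The share of ependymal cells among all cells of a library followed the diet. It was 4.23% (3.35, 5.27) in sham, 2.33% (2.00, 2.69) at 7 dpi and 2.79% (2.48, 3.14) at 28 dpi under vehicle. Under PLX5622 it was 9.55% (7.10, 12.5), 10.3% (7.80, 13.3) and 8.94% (7.19, 10.9). All 3 PLX5622 shares were above all 3 vehicle shares. The denominator includes microglia, macrophages and monocytes. Among the cells outside the microglia, macrophage and monocyte clusters the shares were 8.83%, 10.4% and 12.1% under vehicle and 10.7%, 16.6% and 14.2% under PLX5622, in the same order of stages. With this denominator the order by diet did not hold, as the PLX5622 sham (10.7%) lay below 28 dpi vehicle (12.1%). The vehicle shares after injury lay below sham among all cells and above sham among these cells. All of these shares describe recovered cells. A difference in the cord cannot be told apart from a difference in survival of dissociation.

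Ciliary genes were compared across stages as 8 lists, from the transcription factors to the centriole, with 146 of 180 listed genes in the table. After injury under vehicle most of them stood below sham, by less than the fold. Summed over the lists, their level was 25356 CPM in sham, 19049 CPM at 7 dpi and 18715 CPM at 28 dpi. The log2 ratio to sham was -0.41 (-0.45, -0.37) at 7 dpi and -0.44 (-0.48, -0.40) at 28 dpi. At 7 dpi 88 of 104 ciliary genes with enough UMIs were below sham, as were 2664 of all 4173 such genes, and 7 were past the fold downward, against 3.62% of all genes, while 0 were past it upward, against 4.43%. At 28 dpi 87 of 106 were below sham (2791 of all 4411 genes), with 4 past the fold downward (1.88% of all genes) and 1 upward (4.44%). The median ciliary gene stood at -0.38 and -0.42, and the median of all genes at -0.16 on both days, so part of the ciliary difference was shared by all genes. Scaling by TMM or by DESeq2's size factors, which removes that shift of 0.15 or 0.16, put the ciliary sum at -0.26 and -0.25 at 7 dpi.

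Under PLX5622 the ciliary genes lay nearer to sham. Their summed level was 23722 CPM in sham, 22016 CPM at 7 dpi and 20996 CPM at 28 dpi, a log2 ratio of -0.11 (-0.15, -0.07) and -0.18 (-0.22, -0.13). At 7 dpi 58 of 100 were below sham (1985 of all 3741 genes), with 0 past the fold upward (1.84% of all genes) and 1 downward (0.962%). At 28 dpi 68 of 97 were below sham (1736 of all 3094 genes), with 1 upward (1.13%) and 1 downward (1.16%). The share of an ependymal cell's UMIs in ciliary genes had a median of 2.48%, 2.14% and 2.03% over the vehicle cells of sham, 7 dpi and 28 dpi, and of 2.33%, 2.29% and 2.02% over the PLX5622 cells. At 28 dpi the 2 diets thus gave almost the same median cell.

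The 8 lists did not move alike. The transcription factors, led by Foxj1 with Rfx4 and Rfx3, had a summed log2 ratio of -0.37 (-0.54, -0.20) at 7 dpi under vehicle and 0.23 (0.06, 0.40) under PLX5622. Axonemal dyneins, the motors of the beat, stood at -0.19 and -0.43 at 7 and 28 dpi under vehicle and at -0.19 and -0.23 under PLX5622. Proteins of the central pair and radial spokes, which set the plane of the beat, stood lower, at -0.58 and -0.63 under vehicle and -0.30 and -0.36 under PLX5622, so this list was below sham in all 4 injured libraries. Doublet microtubule proteins stood at -0.43 and -0.39 under vehicle and intraflagellar transport at -0.33 and -0.37, with both lists within 0.12 of sham under PLX5622. The BBSome had the lowest value at 7 dpi under vehicle, -0.69 (-0.90, -0.48), and centriole genes stood at -0.51 (-0.62, -0.40).

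**Figure D2:**
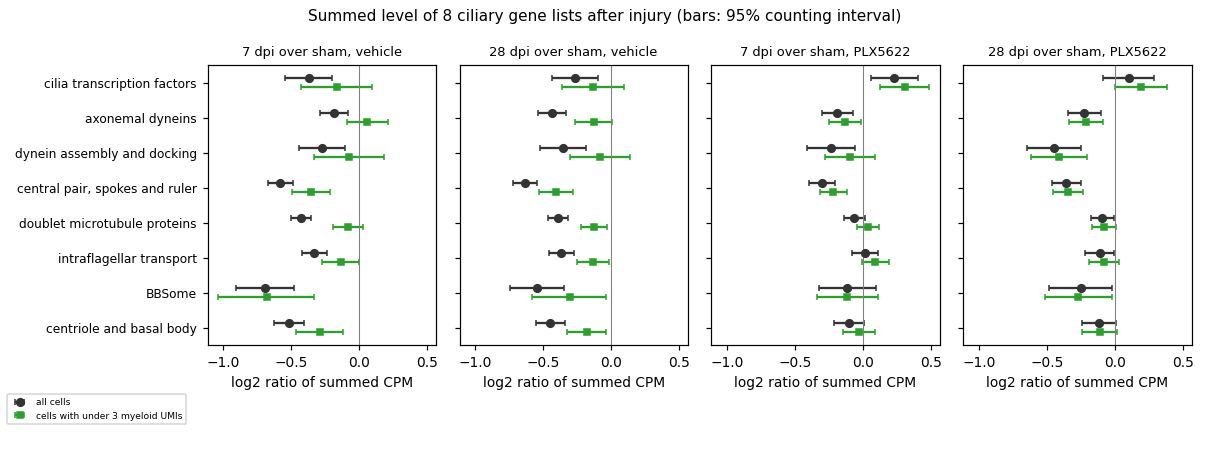
Each panel is an injury comparison, each row a ciliary gene list, and the horizontal axis is the log2 ratio of the summed CPM to sham of the same diet, in all cells (black circles) and in cells with under 3 myeloid UMIs (green squares), with 95% counting intervals. Under vehicle the black points of all 8 lists lie below 0 on both days, and the green points of each list lie nearer to 0 than the black.

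Several ciliary genes stood apart from their lists. Arl6, a small GTPase that recruits the BBSome to membranes, stood at 139 CPM in sham, 33.5 at 7 dpi and 65.0 at 28 dpi under vehicle. Its log2 ratio to sham was -2.06 (-2.83, -1.33) at 7 dpi and -1.10 (-1.68, -0.52) at 28 dpi, though with each cell thinned to 1000 UMIs the 28 dpi ratio of Arl6 was 0.06. Under PLX5622 it stood at 127 CPM in sham, 98.5 at 7 dpi and 70.8 at 28 dpi, so the 7 dpi vehicle library was the lowest of the 6. A UMI of Arl6 was found in 40.8% of sham vehicle cells, 12.7% at 7 dpi and 14.5% at 28 dpi, and in 46.8%, 46.2% and 23.8% of PLX5622 cells. These shares were not thinned, so they also depend on depth. Bbs7, whose X-box is printed above, stood at 88.7 CPM in sham, 36.4 at 7 dpi and 32.5 at 28 dpi under vehicle, with ratios of -1.29 (-2.09, -0.50) and -1.45 (-2.25, -0.67). Its level under PLX5622 was 51.3 CPM in sham, 44.8 at 7 dpi and 40.5 at 28 dpi, within the counting intervals of each other.

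Cep290, which gates the base of the cilium, stood at 385 CPM in sham, 176 at 7 dpi and 165 at 28 dpi under vehicle, ratios of -1.13 (-1.49, -0.78) and -1.22 (-1.57, -0.87). In PLX5622 libraries it stood at 256 CPM in sham, 197 at 7 dpi and 212 at 28 dpi. Spag17, of the central pair, stood at 342 CPM in sham, 162 at 7 dpi and 199 at 28 dpi under vehicle. Ttc30b, of intraflagellar transport, had a ratio of -1.15 (-1.60, -0.70) at 7 dpi under vehicle and 0.27 (-0.17, 0.73) under PLX5622. Fam166b, listed with the centriole, had -1.41 (-1.93, -0.90) and -0.32 (-0.71, 0.08). Cep290, Spag17, Ttc30b and Fam166b thus stood lower at 7 dpi under vehicle, and under PLX5622 none of them was past the fold. Rsph1, a radial spoke head protein, was below sham under both diets (1199, 794, 702, 1179, 831 and 787 CPM in the order vehicle sham, 7 dpi and 28 dpi, then PLX5622). Hydin, a giant central pair protein, had ratios of -0.56 and -0.69 under vehicle and -0.49 and -0.44 under PLX5622. Of the other X-box genes, Iqca stood at 497, 351, 374, 459, 296 and 319 CPM and was below sham after injury in both diets, Lztfl1 had ratios of -0.52 and -0.20 under vehicle, Ift57 had -0.29 and -0.37, and Ccdc151 had 0.15 and 0.01. Genes with the motif thus stood both below sham and at its level.

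What stood highest after injury under vehicle were genes of myeloid cells. Of genes with 5 or more UMIs in each library, the 5 firmest at 7 dpi were Spp1 (osteopontin), S100a9, C1qb, S100a8 and C1qa. At 28 dpi they were Spp1, C1qa, C1qb, Ctsd and Fcer1g. All 12 genes of a list of pan-myeloid genes were past the fold upward on both days under vehicle, against 4.43% and 4.44% of all genes. Their summed level was 137 CPM in sham, 7588 at 7 dpi and 8177 at 28 dpi under vehicle. Under PLX5622 it was 394, 2148 and 1049.5 CPM. Tyrobp, the signaling adaptor of myeloid receptors, stood at 7.61 CPM in sham, 1163 at 7 dpi and 1123 at 28 dpi under vehicle and 48.6 CPM in sham, 477 at 7 dpi and 126 at 28 dpi under PLX5622. C1qa, a chain of complement C1q, stood at 25.4 CPM in sham, 1188 at 7 dpi and 1812 at 28 dpi and 75.6 CPM in sham, 78.8 at 7 dpi and 209.9 at 28 dpi.

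These UMIs were spread unevenly over cells. The 10% of cells with the most myeloid UMIs held 80.6% of them at 7 dpi and 73.2% at 28 dpi under vehicle, with up to 581 and 525 UMIs in a single cell. In the sham PLX5622 library 1 cell held 140 of 146. In the 7 dpi PLX5622 library 1 cell held 1034 of them, and the top 10% held 95.9%. Of the 707 cells, 82 had at least 1% of their UMIs in the 12 genes, 23 and 49 of them in the injured vehicle libraries and none in sham vehicle. Of these 82 cells, 81 also held an ependymal marker UMI and 53 were marked as doublets. With each cell thinned to 1000 UMIs, 3 or more myeloid UMIs were found in 0 of 60 cells of sham vehicle (up to 5.96%), 34.2% (26.8, 42.1) at 7 dpi and 34.7% (28.7, 41.1) at 28 dpi. Under PLX5622 the shares were 2.33% (0.0589, 12.3), 4.08% (0.498, 14) and 11.4% (5.07, 21.3). Without thinning they were 3.95%, 62.4%, 55.3%, 2.13%, 13.5% and 17.9%.

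The same UMIs also appeared in clusters of other cell types. Astrocytes and endothelial cells are not known to make most of these genes, whereas lymphocytes make some of them, Laptm5 for example. In astrocytes thinned likewise the share was 2.22% in sham, 49.0% at 7 dpi and 54.4% at 28 dpi under vehicle, and in endothelial cells 3.95%, 34.5% and 41.3%. In the T cell cluster it was 45.9%, 73.6% and 68.1%, so already high in sham. Under PLX5622 the sham, 7 and 28 dpi shares were 0%, 12.5% and 3.57% in astrocytes, 1.47%, 8.45% and 3.77% in endothelial cells and 38.1%, 30.4% and 31.1% in T cells. Under vehicle the thinned ependymal shares of the injured libraries lay at or below those of the other 3 clusters. Without thinning this did not hold, as the 7 dpi share was 62.4% in ependymal and 59.5% in endothelial cells, and the 28 dpi share was 55.3% in ependymal cells, 49.4% in astrocytes and 51.7% in endothelial cells. At 28 dpi under PLX5622 the ependymal share of 11.4% (5.07, 21.3) lay above those of astrocytes (0.435, 12.3) and endothelial cells (0.46, 13), with overlapping intervals, and below that of T cells. Without the cells marked as doublets the thinned ependymal shares at 7 and 28 dpi under vehicle were both 24.6%, and the endothelial share at 7 dpi was 23.7%. RNA of myeloid cells and expression by ependymal cells cannot be told apart from these counts. S100a9 and S100a8, the neutrophil granule proteins, were narrower still. In the 7 dpi vehicle library 4 of 173 cells held 96.4% of the S100a9 UMIs, and at 28 dpi 4 of 275 cells held 93%. Gpnmb, of lipid-laden macrophages, was at 0 UMIs in both shams and at 976 CPM and 747 CPM at 7 dpi under vehicle and PLX5622, where under PLX5622 402 of its 417 UMIs came from 1 cell.

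**Figure D3:**
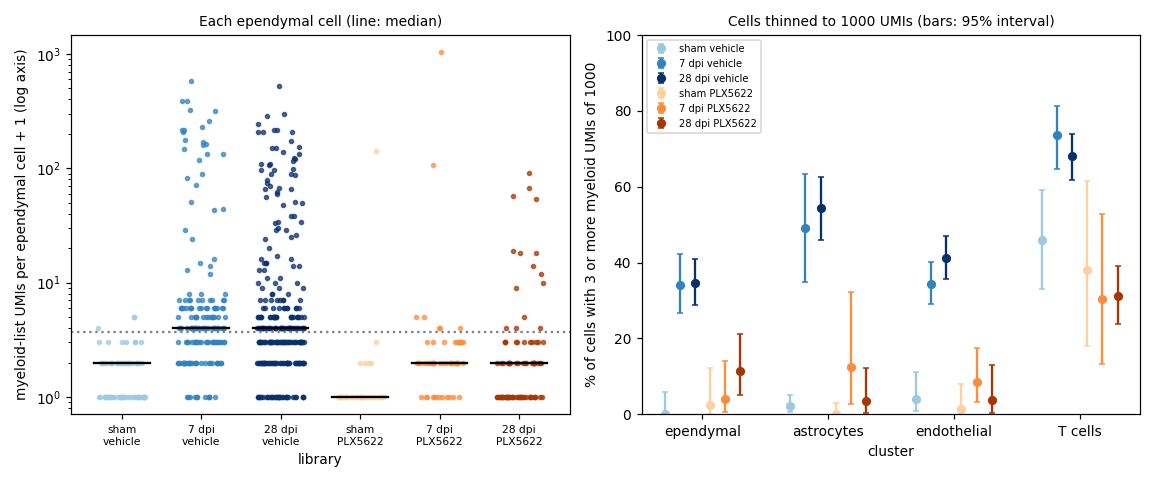
Left, the number of UMIs of the 12 myeloid genes plus 1 in each ependymal cell (log axis) by library, with the median as a line and a dotted line between 2 and 3 UMIs. Right, the percentage of cells with 3 or more of them after thinning to 1000 UMIs in 4 clusters, with 95% intervals, where the 7 and 28 dpi vehicle shares are above sham in every cluster.

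Since the myeloid UMIs moved with stage and diet, each comparison is also given for the ependymal cells with fewer than 3 myeloid UMIs. These were 73, 65 and 123 cells in the vehicle libraries and 46, 45 and 69 in the PLX5622 libraries, 421 in all. The rule keeps shallower cells where myeloid UMIs are many, and the median such cell of the injured vehicle libraries had 1884 and 1479 UMIs against 4444 in sham. In them the summed ciliary level was nearer to sham under vehicle, with log2 ratios of -0.16 (-0.22, -0.11) at 7 dpi and -0.19 (-0.23, -0.14) at 28 dpi, and -0.03 (-0.07, 0.02) and -0.16 (-0.20, -0.11) under PLX5622. At 28 dpi the values of the 2 diets were almost equal. Arl6 stood at -2.09 (-3.77, -0.78) at 7 dpi under vehicle, from 5 UMIs against 55 in sham, and at -0.87 (-1.72, -0.08) at 28 dpi, where it was no longer past the fold. Cep290 stood at -1.14 (-1.80, -0.53) and -0.40 (-0.84, 0.03), and the central pair and spoke list at -0.35 (-0.49, -0.21) and -0.40 (-0.53, -0.28). Spp1 was again the highest gene under vehicle by the ranking used, on both days. Its ratios in these cells were 4.54 (3.42, 5.91) and 3.87 (2.74, 5.24), from 63 and 61 UMIs against 7 in sham.

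Ribosomal protein genes, 84 in the table, stood above sham under vehicle, with a summed log2 ratio of 0.69 (0.67, 0.71) at 7 dpi and 0.68 (0.65, 0.70) at 28 dpi. In cells with few myeloid UMIs the ratios were 0.39 and 0.36. Under PLX5622 they were 0.10 and 0.00. The median ependymal cell spent 6.00%, 7.90% and 7.91% of its UMIs on them under vehicle and 6.49%, 7.46% and 6.94% under PLX5622. Rpl13, of the large subunit, stood at 1138 CPM in sham, 1974 at 7 dpi and 1991 at 28 dpi under vehicle and 1341 CPM in sham, 1351 at 7 dpi and 1282 at 28 dpi under PLX5622.

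Genes of neural progenitors and of the Notch pathway were mostly below sham after injury under vehicle. At 7 dpi 14 of 17 were below it, as were 2664 of 4173 genes in all. Past the fold were 3 downward and 1 upward, against 3.62% and 4.43% of all genes. At 28 dpi 15 of 18 were below it, against 2791 of all 4411 genes, with 1 past the fold downward (1.88%) and 1 upward (4.44%). Under PLX5622 10 of 17 were below sham on each day, against 1985 of all 3741 and 1736 of all 3094 genes. Past the fold were 2 downward (0.962%) and 1 upward (1.84%) at 7 dpi and none at 28 dpi (1.16% and 1.13%). Hes1, the target that Notch signaling switches on, stood at 109 CPM in sham, 20.4 at 7 dpi and 22.1 at 28 dpi under vehicle, the lowest ratio of all genes on both days by the ranking used, at -2.42 (-3.40, -1.52) and -2.30 (-3.21, -1.46). Under PLX5622 it stood at 83.7 CPM in sham, 69.9 at 7 dpi and 50.6 at 28 dpi, with ratios of -0.26 (-0.98, 0.47) and -0.73 (-1.61, 0.13). The injured vehicle libraries thus lay below the other 4. They held 14 and 17 Hes1 UMIs at 7 and 28 dpi, against 43 in the vehicle sham. In cells with few myeloid UMIs the vehicle ratios were -2.47 (-4.80, -0.83) and -2.10 (-3.62, -0.86), from fewer UMIs still. A Hes1 UMI was found in 30.3% of sham cells, 6.36% at 7 dpi and 6.18% at 28 dpi under vehicle, and in 38.3%, 36.5% and 11.9% under PLX5622. These shares were not thinned, and the median cell held 4444.5, 2281 and 1866 UMIs under vehicle and 6145, 7093 and 3053 under PLX5622. The part of depth in them was not tested. Hes1 was also lower after injury in astrocytes, endothelial cells, T cells, microglia and macrophages, under both diets. In astrocytes it stood at 183, 21.8 and 21.7 CPM under vehicle and 189, 66.7 and 145 CPM under PLX5622. The 28 dpi astrocyte ratio under PLX5622 was -0.38 (-1.12, 0.29), an interval that held 0. In endothelial cells it stood at 265, 91.0 and 86.7 CPM and 202, 133 and 155 CPM. Under vehicle it stood at 12.9, 2.81 and 4.04 CPM in microglia and 12.7, 2.01 and 3.68 CPM in macrophages. Microglia and macrophages under PLX5622, and T cells under both diets, held at most 8 Hes1 UMIs per library. The part of a shift shared by clusters in the ependymal ratios was not tested.

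Hopx, a homeodomain protein of quiescent stem cells, stood at 228 CPM in sham, 93.2 at 7 dpi and 134 at 28 dpi under vehicle and 378 CPM in sham, 174 at 7 dpi and 271 at 28 dpi under PLX5622, lowest at 7 dpi in both diets. Its ratios were -1.29 (-1.78, -0.81) and -1.12 (-1.51, -0.74) at 7 dpi. Id4, an inhibitor of differentiation, stood at 276 CPM in sham, 121 at 7 dpi and 201 at 28 dpi under vehicle, a ratio of -1.19 (-1.62, -0.77) at 7 dpi, and at 278 CPM in sham, 238 at 7 dpi and 233 at 28 dpi under PLX5622. Pax6, a progenitor transcription factor, stood at 112 CPM in sham, 56.8 at 7 dpi and 70.2 at 28 dpi and 140.3 CPM in sham, 150.5 at 7 dpi and 126 at 28 dpi. With few myeloid UMIs per cell Hopx and Id4 at 7 dpi under vehicle stood at -1.05 (-1.92, -0.27) and -1.08 (-1.87, -0.37). Sox2 and Sox9, which keep neural stem cells in place, differed by less, with ratios of -0.58 and -0.30 at 7 dpi under vehicle and -0.15 and 0.03 under PLX5622. Vim, an intermediate filament of radial glia, had -0.55 and 0.03. Id2 stood higher after injury in both diets, at 30.4 CPM in sham, 108 at 7 dpi and 91.0 at 28 dpi and 21.6 CPM in sham, 113 at 7 dpi and 78.4 at 28 dpi, though without the cells marked as doublets its ratio at 7 dpi under vehicle was -0.19. Fabp7, of radial glia, stood at 83.7 CPM in sham, 43.7 at 7 dpi and 66.3 at 28 dpi and 62.1 CPM in sham, 109 at 7 dpi and 96.1 at 28 dpi. Btg2, which slows the cell cycle of progenitors, was lower at 7 dpi under PLX5622, at -1.51 (-2.25, -0.79).

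Few UMIs of cycling genes were found in cluster 6. The metadata hold a separate cluster of intermediate progenitors, where Mki67 and Top2a were highest, at 591 and 789 CPM, so dividing cells that were grouped there are not counted here. Mki67, made only in cycling cells, had 5, 2, 1 and 0 UMIs in the injured libraries of 7 dpi vehicle, 28 dpi vehicle, 7 dpi PLX5622 and 28 dpi PLX5622, and 0 in both shams. They lay in 3 of 173 cells (1.73%, 0.359, 4.98) and 2 of 275 cells (0.727%) under vehicle and in 1 of 52 cells under PLX5622. Top2a UMIs lay in 6 of 173 cells at 7 dpi under vehicle and in at most 3 cells of any other library. Ccnd2, a cyclin that does not by itself mark division, stood at 596 CPM in sham, 439.8 at 7 dpi and 461 at 28 dpi under vehicle and 774 CPM in sham, 473 at 7 dpi and 607 at 28 dpi under PLX5622. Tubb5, a tubulin, stood at 76.1 CPM in sham, 183 at 7 dpi and 125 at 28 dpi and 45.9 CPM in sham, 118 at 7 dpi and 86.0 at 28 dpi, higher at 7 dpi in both, but in cells with few myeloid UMIs the 7 dpi vehicle ratio of Tubb5 was -0.11.

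Of 15 genes of reactive glia with enough UMIs, 7 were past the fold upward and 1 downward at 7 dpi under vehicle (4.43% and 3.62% of all genes). At 28 dpi it was 4 of 13 upward (4.44%), and under PLX5622 3 of 12 (1.84%) and 1 of 11 (1.13%). S100a6, a calcium-binding protein, stood at 48.2 CPM in sham, 218 at 7 dpi and 172 at 28 dpi under vehicle and 70.2 CPM in sham, 197 at 7 dpi and 162 at 28 dpi under PLX5622. Its ratios to sham were 2.18 (1.49, 2.95) and 1.83 (1.13, 2.61) under vehicle and 1.49 (0.86, 2.17) and 1.21 (0.53, 1.92) under PLX5622. Among cells with few myeloid UMIs they were 2.21, 1.50, 1.69 and 1.08, so all 4 injured libraries lay above both shams either way. With each cell thinned to 1000 UMIs the 28 dpi PLX5622 ratio of S100a6 was -0.02. A UMI of S100a6 was found in 33.5% of cells at 7 dpi under vehicle and 51.9% under PLX5622, against 18.4% and 29.8% in sham. At 28 dpi the shares were 20.0% and 31.0%. These shares were not thinned, and the 28 dpi cells were shallower than those of sham. Their median was 1866 against 4444.5 UMIs under vehicle and 3053 against 6145 under PLX5622. Pooled over libraries that differ in level and depth, it was in 27.4% of ependymal cells, 10.6% of astrocytes, 13.7% of endothelial cells and 57.9% of T cells. In astrocytes S100a6 stood at 35.9, 571 and 86.9 CPM under vehicle and 22.2, 628 and 567 CPM under PLX5622. Its astrocyte ratios at 7 dpi were 3.99 (3.38, 4.65) and 4.82 (3.95, 5.81), above those of ependymal cells. Gfap, the filament of astrocytes and activated glia, stood at 30.4 CPM in sham, 93.2 at 7 dpi and 55.9 at 28 dpi under vehicle and 29.7 CPM in sham, 174 at 7 dpi and 83.5 at 28 dpi under PLX5622, with ratios of 1.61 (0.71, 2.64) and 2.55 (1.65, 3.60) at 7 dpi. In the cells with few myeloid UMIs its 7 dpi ratios were 2.49 (1.45, 3.61) and 2.89 (1.99, 3.94). In astrocytes Gfap stood at 119, 1578 and 336 CPM under vehicle and 237, 4799 and 2639 CPM under PLX5622, highest at 7 dpi in both diets as in ependymal cells. The part of astrocyte RNA in the ependymal levels of S100a6 and Gfap was not tested.

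The galectins were closer to sham at 7 dpi in cells with few myeloid UMIs. Lgals3 stood at 117 CPM in sham, 467 at 7 dpi and 270.4 at 28 dpi under vehicle, and its 7 dpi ratio was 2.00 in all cells and 0.89 in cells with few myeloid UMIs. Lgals1, another galectin, had 7 dpi ratios of 3.48 in all vehicle cells and 0.15 in those cells, where it rests on 3 UMIs against 7 in sham. Tmsb10, which binds actin monomers, stood at 119 CPM in sham, 338 at 7 dpi and 416 at 28 dpi under vehicle and 289 CPM in sham, 281 at 7 dpi and 288 at 28 dpi under PLX5622. Its vehicle ratios were 1.50 and 1.80, and 1.23 and 1.26 in cells with few myeloid UMIs. Cryab, a small heat shock protein, was below sham at 7 dpi in both diets, at -1.18 (-1.63, -0.73) and -0.90 (-1.32, -0.48), and in cells with few myeloid UMIs at -0.57 (-1.27, 0.08) and -1.37 (-1.89, -0.88). Anxa2, an annexin of reactive glia, stood at 339.8, 357, 343, 332, 412 and 372 CPM across the 6.

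Apoe, the lipid carrier of glia and macrophages, and Ctsd, a lysosomal protease, stood far above sham in the injured vehicle libraries. Apoe stood at 2064 CPM in sham, 20035 at 7 dpi and 18343 at 28 dpi under vehicle and at 2302 CPM in sham, 5689.9 at 7 dpi and 3427 at 28 dpi under PLX5622. Its ratios were 3.28 (3.18, 3.38) and 3.15 (3.05, 3.26) under vehicle and 1.31 (1.20, 1.42) and 0.57 (0.45, 0.70) under PLX5622. Restricted to cells with few myeloid UMIs Apoe stood at 2015 CPM in sham, 4706 at 7 dpi and 4896 at 28 dpi under vehicle and 1914 CPM in sham, 1923 at 7 dpi and 2617 at 28 dpi under PLX5622, so a higher level remained under vehicle, and at 7 dpi under PLX5622 none did. Ctsd in those cells stood at 147 CPM in sham, 549 at 7 dpi and 728 at 28 dpi under vehicle and 234 CPM in sham, 219.9 at 7 dpi and 303 at 28 dpi under PLX5622, against 145 CPM in sham, 3799 at 7 dpi and 4342 at 28 dpi and 321 CPM in sham, 1422 at 7 dpi and 1146 at 28 dpi in all cells. A UMI of Apoe was found in 95.5% of ependymal cells and in 84.0% of T cells, which are not known to make it. In T cells its level was 817, 46392 and 39061 CPM across the vehicle stages and 78.6, 1314 and 1973 CPM under PLX5622. In both clusters the injured libraries thus lay above sham of the same diet. From 7 to 28 dpi under PLX5622 the T cell level rose while the ependymal level fell. The PLX5622 sham was far below the vehicle sham in T cells but not in ependymal cells. The part of RNA from other cells in the ependymal difference was not tested.

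Of 22 lysosomal genes with enough UMIs, 11 were past the fold upward at 7 dpi (4.43% of all genes) and 11 at 28 dpi (4.44%) under vehicle, with a summed ratio of 1.33 and 1.39. Over cells with few myeloid UMIs the sums were 0.19 (0.07, 0.30) and 0.14 (0.04, 0.24), and -0.09 (-0.18, 0.00) and -0.01 (-0.11, 0.08) under PLX5622. In all cells 7 of 19 were past it upward at 7 dpi (1.84%) and 4 at 28 dpi (1.13%) under PLX5622. Laptm4a, a lysosomal membrane protein with a steady level in these cells, stood at 1379, 1096, 1215, 1365, 1179 and 1211 CPM in the order given before. Ctsb, another protease, had 7 dpi ratios of 2.89 under vehicle and 2.07 under PLX5622, and 1.21 and 0.16 in cells with few myeloid UMIs.

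Among genes of lipid handling, Dbi, which binds acyl-CoA, had a high level in these cells. It stood at 11129 CPM in sham, 14129 at 7 dpi and 12050 at 28 dpi under vehicle and 11082 CPM in sham, 14911 at 7 dpi and 14843 at 28 dpi under PLX5622, above sham in all 4 injured libraries. In cells with few myeloid UMIs its ratios were 0.74 and 0.40 under vehicle and 0.53 and 0.45 under PLX5622. In astrocytes Dbi stood at 1690.3, 2046 and 1118 CPM under vehicle and 1546, 3238 and 2065 CPM under PLX5622. Fabp5, a fatty acid carrier, stood at 38.0 CPM in sham, 1109.6 at 7 dpi and 287 at 28 dpi and 16.2 CPM in sham, 597 at 7 dpi and 83.5 at 28 dpi, and in cells with few myeloid UMIs at 39.3 CPM in sham, 156 at 7 dpi and 127 at 28 dpi and 16.4 CPM in sham, 72.5 at 7 dpi and 55.8 at 28 dpi. Fabp5 is also known from macrophages. Soat1, which esterifies cholesterol, stood at 40.6 CPM in sham, 112 at 7 dpi and 96.2 at 28 dpi and 43.2 CPM in sham, 106 at 7 dpi and 93.6 at 28 dpi, about the same in both diets. Sqle, of cholesterol synthesis, stood lower at 7 dpi under vehicle, at -1.01 (-1.68, -0.35).

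Metallothioneins bind zinc and copper. Mt3 stood at 5272 CPM in sham, 7480.1 at 7 dpi and 7782 at 28 dpi under vehicle and 10076 CPM in sham, 11756 at 7 dpi and 12491 at 28 dpi under PLX5622, so each injured library was above its sham and each PLX5622 library above all 3 vehicle libraries. Its ratios to sham were 0.50 (0.43, 0.58) and 0.56 (0.49, 0.63) under vehicle and 0.22 (0.16, 0.28) and 0.31 (0.25, 0.37) under PLX5622. With few myeloid UMIs per cell they were 0.90 and 0.96, and 0.32 and 0.33. Mt1 and Mt2 had 7 dpi ratios of 0.06 and 0.47 under vehicle and 0.12 and 0.39 under PLX5622. Antioxidant enzymes went both ways. Prdx6 stood at 1146, 794, 836, 1368, 914 and 941 CPM and Gstm1, a glutathione transferase, at 525, 297, 393, 604, 346 and 399.6 CPM, both below sham in all 4 injured libraries. Ftl1, the ferritin light chain, stood at 479 CPM in sham, 2931 at 7 dpi and 2056 at 28 dpi under vehicle, and its 7 dpi ratio was 2.61 in all cells and 0.87 in cells with few myeloid UMIs. Gpx1 had 1.59 and 0.55.

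**Figure D4:**
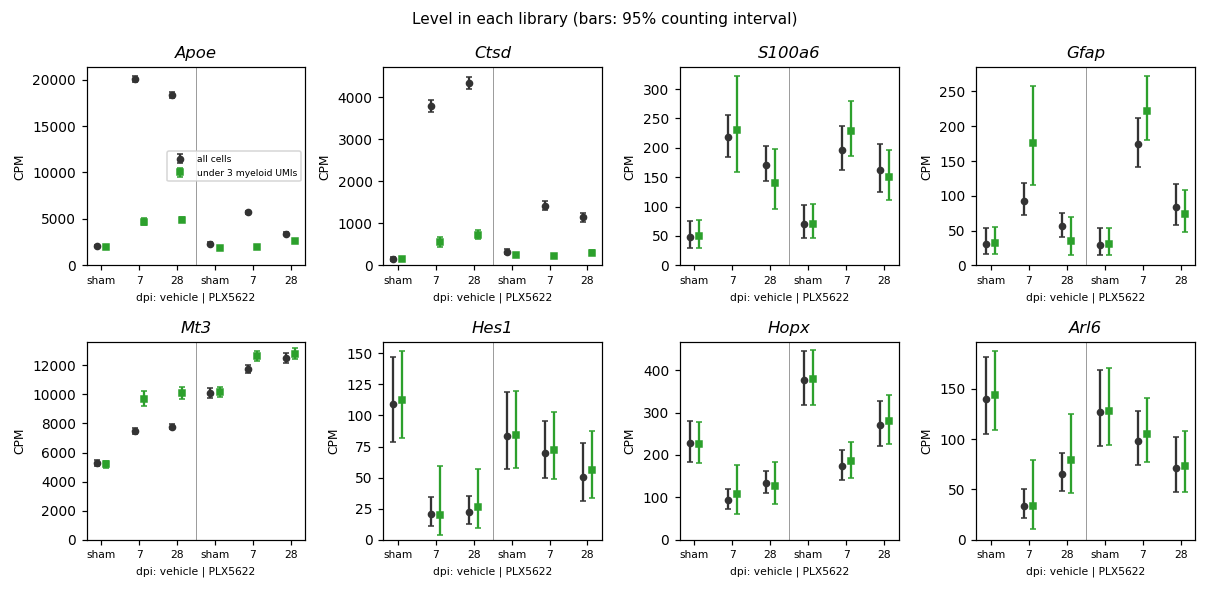
Each panel shows the CPM of 1 gene in the 6 libraries, vehicle left and PLX5622 right of the line, in all ependymal cells (black circles) and in cells with under 3 myeloid UMIs (green squares), with 95% counting intervals. For Apoe and Ctsd the green points lie far below the black ones in the injured vehicle libraries, while for S100a6, Hes1, Hopx and Arl6 the intervals of the 2 overlap in every library. The green cells are among the black ones and few UMIs widen the intervals, so overlap does not show equal levels.

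Of 7 genes of class I antigen presentation and the interferon response with enough UMIs, 5 were past the fold upward at 7 dpi under vehicle (4.43% of all genes), and 6 of 8 at 28 dpi (4.44%). Under PLX5622 it was 2 of 5 (1.84%) and 1 of 5 (1.13%). B2m, the light chain, stood at 25.4 CPM in sham, 411 at 7 dpi and 565 at 28 dpi under vehicle and 67.5 CPM in sham, 209.6 at 7 dpi and 137 at 28 dpi under PLX5622. H2-D1, a heavy chain, stood at 50.7 CPM in sham, 271 at 7 dpi and 255 at 28 dpi and 81.0 CPM in sham, 269 at 7 dpi and 162 at 28 dpi. Among cells with few myeloid UMIs H2-D1 had ratios of 0.82 (-0.32, 1.92) and 0.67 (-0.35, 1.68) under vehicle, and B2m had 1.37 (-0.14, 2.88) and 2.53 (1.42, 3.78), so the H2-D1 intervals and the 7 dpi B2m interval held 0. At 7 dpi under PLX5622 the B2m ratio was 1.64 over all cells, but -0.70 in cells with at most 3000 genes and -0.19 after thinning to 1000 UMIs. Ifitm3, an interferon-induced membrane protein with a high level in these cells, stood at 1945, 2334, 2049.7, 2309.8, 2415 and 3019.7 CPM, the highest at 28 dpi under PLX5622. Bst2 had a 7 dpi ratio of 3.44 under vehicle in all cells and 1.79 (0.07, 3.59) in cells with few myeloid UMIs.

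Of 12 secreted proteins with enough UMIs, 2 were past the fold upward and 2 downward at 7 dpi under vehicle (4.43% and 3.62% of all genes). At 28 dpi it was 2 upward and 0 downward (4.44% and 1.88%). Under PLX5622 1 was upward at 7 dpi (1.84%) and none at 28 dpi, and none was downward on either day. Clu, a chaperone of cerebrospinal fluid, stood at 4009, 3403, 3673, 4722, 4138 and 3889.6 CPM. Sparcl1, a matricellular protein, stood at 743 CPM in sham, 275 at 7 dpi and 468 at 28 dpi under vehicle and 726 CPM in sham, 518 at 7 dpi and 622 at 28 dpi under PLX5622, ratios of -1.43 (-1.70, -1.16) and -0.49 (-0.73, -0.24) at 7 dpi. Spint2, a protease inhibitor, stood at 203 CPM in sham, 74.3 at 7 dpi and 105 at 28 dpi and 154 CPM in sham, 147 at 7 dpi and 139 at 28 dpi. In the cells with few myeloid UMIs the 7 dpi vehicle ratios were -1.23 (-1.72, -0.78) for Sparcl1 and -1.42 (-2.48, -0.50) for Spint2. Plat, the tissue plasminogen activator and among the 5 lowest genes at 7 dpi under vehicle, stood at 183 CPM in sham, 52.4 at 7 dpi and 130 at 28 dpi and 111 CPM in sham, 109 at 7 dpi and 157 at 28 dpi. Cst3, a protease inhibitor of fluid that microglia also make, stood at 918 CPM in sham, 1985 at 7 dpi and 3726 at 28 dpi under vehicle, with a 28 dpi ratio of 2.02 in all cells and 0.76 in cells with few myeloid UMIs.

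Of 19 channels, transporters and junction proteins with enough UMIs none was past the fold upward and 2 were past it downward at 7 dpi under vehicle (3.62% of all genes), Gja1 and Jam3. Of 21 at 28 dpi none was past it either way. Under PLX5622 none of 18 was past it at 7 dpi, and at 28 dpi 1 of 19 was upward and 1 downward (1.13% and 1.16%). Gja1, the gap junction protein that couples ependymal cells, stood at 426 CPM in sham, 209.7 at 7 dpi and 325 at 28 dpi under vehicle and 413 CPM in sham, 379.8 at 7 dpi and 407 at 28 dpi under PLX5622, with ratios of -1.02 (-1.35, -0.69) and -0.12 (-0.43, 0.19) at 7 dpi. Jam3, of tight junctions, stood at 127 CPM in sham, 51.0 at 7 dpi and 65.0 at 28 dpi and 113 CPM in sham, 82.4 at 7 dpi and 55.6 at 28 dpi. Slc2a1, the glucose transporter, stood at 515 CPM in sham, 271 at 7 dpi and 328 at 28 dpi and 513 CPM in sham, 365 at 7 dpi and 367 at 28 dpi, below sham in all 4 injured libraries. Restricted to cells with few myeloid UMIs Gja1 and Slc2a1 had 7 dpi vehicle ratios of -0.89 (-1.47, -0.35) and -0.84 (-1.35, -0.36).

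Of 13 Hox genes with enough UMIs, which record position along the cord, 1 was past the fold at 7 dpi under vehicle, Hoxc4 downward (3.62% of all genes), and none of 13 at 28 dpi. Under PLX5622 1 of 12 was past it at 7 dpi, Hoxc9 upward (1.84%), and none of 9 at 28 dpi. Hoxc8 stood at 314, 253, 244, 246, 281 and 263 CPM and Hoxb8 at 274, 199, 222, 243, 247 and 199.8 CPM. Hoxc4, of more anterior identity, had a 7 dpi ratio of -1.25 (-2.11, -0.41) under vehicle and -0.81 (-1.48, -0.14) under PLX5622, while Hoxc9 had 0.51 (-0.15, 1.21) and 1.24 (0.42, 2.14). The median of the list was -0.29 and -0.36 under vehicle and -0.02 and -0.09 under PLX5622.

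Dissociation of tissue is known to raise stress and immediate early genes. Of 16 with enough UMIs at 7 dpi under vehicle, 2 were past the fold upward and 2 downward (4.43% and 3.62% of all genes), and of 18 at 28 dpi, 2 and 1 (4.44% and 1.88%). Under PLX5622 it was 1 and 2 of 12 at 7 dpi (1.84% and 0.962%) and 0 and 1 of 11 at 28 dpi (1.13% and 1.16%). Fos stood at 142 CPM in sham, 97.6 at 7 dpi and 62.4 at 28 dpi under vehicle and 21.6 CPM in sham, 96.7 at 7 dpi and 40.5 at 28 dpi under PLX5622. Hspa1a, a heat shock protein, stood at 200.3 CPM in sham, 74.3 at 7 dpi and 123 at 28 dpi and 275 CPM in sham, 80.6 at 7 dpi and 167 at 28 dpi, with ratios of -1.43 (-1.97, -0.91) and -1.77 (-2.31, -1.25) at 7 dpi. It was below sham in all 4 injured libraries, and the lowest gene at 7 dpi under PLX5622 by the ranking used. Hspa1b, its near copy, had -1.13 and -0.75. Reads of the pair may be shared, so the split between them is uncertain. Junb stood at 25.4 CPM in sham, 77.2 at 7 dpi and 100.1 at 28 dpi and 8.10 CPM in sham, 35.8 at 7 dpi and 10.1 at 28 dpi. Without the cells marked as doublets its 7 dpi vehicle ratio was -0.04, and its 7 dpi ratio of PLX5622 to vehicle turned from -1.11 to 0.54, with cells removed from the vehicle library only. Hsp90aa1, a chaperone, stood at 7348, 5644, 6627, 5979.7, 6329 and 5649.8 CPM.

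Under PLX5622, 69 of 3741 genes were past the fold upward at 7 dpi and 35 of 3094 at 28 dpi. Of the 12 myeloid genes 6 had enough UMIs on each day, and 5 of the 6 were past it upward (1.84% and 1.13% of all genes). Among genes with 5 or more UMIs in each library, the highest at 7 dpi were Fabp5, Tyrobp, Fcer1g, Trem2 and Ctss. At 28 dpi they were Ctsd, Laptm5, Grn, Ctsb and C1qa. Spp1 and Gpnmb, with 1 and 0 UMIs in the PLX5622 sham, fell outside this ranking. In the 7 dpi PLX5622 library a single cell held 251 of the 266 Tyrobp UMIs and a single cell held 694 of the 801 Spp1 UMIs. A UMI of Tyrobp was found in 12 of 52 cells there and a UMI of Spp1 in 42. In the PLX5622 sham these were 2 and 1 of 47 cells. At 28 dpi 8 of 84 cells held 79.5% of the UMIs of the 12 myeloid genes. In cells with at most 3000 genes the 7 dpi ratios of Tyrobp and Ctss were -1.28 and -1.15. In cells with few myeloid UMIs, a choice that itself used Trem2 and Laptm5, the 7 dpi ratio of Trem2 was -0.81 and the 28 dpi ratio of Laptm5 -0.48. The lowest besides Hspa1a were Adra2a, Hist1h2be, Selenbp1 and Pex13 at 7 dpi and Fam47e, Jund, Tmed4, Ap2m1 and Selenbp1 at 28 dpi. Selenbp1 stood at 143 CPM in sham, 50.2 at 7 dpi and 58.2 at 28 dpi under PLX5622 and 83.7 CPM in sham, 40.8 at 7 dpi and 65.0 at 28 dpi under vehicle. Adra2a, an adrenergic receptor, stood at 99.8 CPM in sham, 26.9 at 7 dpi and 37.9 at 28 dpi and 78.6 CPM in sham, 52.4 at 7 dpi and 55.9 at 28 dpi.

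The injury difference itself was set side by side between diets, with a counting interval and no test. Hes1 at 7 dpi had ratios of -2.42 under vehicle and -0.26 under PLX5622. Ubb, a polyubiquitin gene, had -1.29 and -0.01, Plat -1.80 and -0.02, and Zfp423 -1.11 and 0.84. With each cell thinned to 1000 UMIs the ratios of Zfp423 were 0.77 and -0.60, so both signs turned. In the other direction, Ctsd had 4.72 and 2.15, and in cells with few myeloid UMIs 1.90 and -0.09. At 28 dpi Dzip1, of the ciliary base, had -0.76 under vehicle and 1.59 under PLX5622, and Kifap3, of the kinesin that drives cargo into the cilium, had -0.53 and 1.19. Both were lower in the PLX5622 sham than in the vehicle sham, which enters those ratios, and with each cell weighted alike the 28 dpi PLX5622 ratio of Dzip1 was 0.00. These genes were picked as the ends of the ranking, after their values were seen.

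The diets were then compared at each stage. In sham, ependymal cells of the 2 diets were close. Of 3191 genes with enough UMIs 26 were past the fold upward (0.815%) and 20 downward (0.627%). Of the 99 ciliary genes 1 was upward and 1 downward, and their summed ratio of PLX5622 to vehicle was -0.10 (-0.14, -0.05). The highest genes were Arf5, a GTPase of vesicle budding (38.0 and 165 CPM under vehicle and PLX5622), Mt3 (5272 and 10076 CPM), Tmsb10 (119 and 289 CPM) and the ribosomal protein genes Rplp2 and Rpl28. The lowest were Fos (142 and 21.6 CPM, from 56 and 8 UMIs), Wdr89, Smc5, Dzip1 and Kifap3, though with each cell weighted alike Dzip1 stood at 0.24. Kifap3 stood at 180 and 86.3 CPM and was the 1 gene of the ciliary lists past the fold downward (Dzip1 is in none of them), while Odf3b, an outer dense fiber protein listed with the centriole, was the 1 upward, at 134 and 281 CPM.

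At 7 dpi 4626 genes had enough UMIs, of which 1.56% were past the fold upward under PLX5622 and 2.46% downward. Of 110 ciliary genes 4 were upward and 0 downward, with a summed ratio of 0.21 (0.17, 0.24) in all cells and 0.05 (0.00, 0.11) in cells with few myeloid UMIs. At 28 dpi the shares of all genes were 1.27% upward and 3.35% downward. Of 106 ciliary genes 1 was upward and 0 downward, with a summed ratio of 0.17 (0.13, 0.20) in all cells and -0.06 (-0.11, -0.01) in cells with few myeloid UMIs. The higher ciliary level under PLX5622 after injury was thus seen over all cells. At 28 dpi it lay below 0 in cells with fewer than 3 myeloid UMIs, and at 7 dpi it was -0.0537 without the cells marked as doublets. Without the cells marked as doublets the summed level of the 12 myeloid genes had a 7 dpi ratio of 0.17, against -1.82 over all cells. That marking took 25 ependymal cells from the 7 dpi vehicle library and 0 from the 7 dpi PLX5622 library, which kept the cell with 1034 of its 1199 myeloid UMIs. By the ranking used, which needs 5 UMIs in each library, the lowest genes under PLX5622 at 7 dpi were S100a8, C1qb, Wfdc17, C1qc and C1qa. At 28 dpi they were Trem2, Cd52, Spp1, Cd68 and C1qa. S100a9, with 0 UMIs under PLX5622 and 1574 under vehicle at 7 dpi, fell outside this ranking. The highest at 7 dpi were Hba-a2, BC002163, Ubb, Ahdc1 and Alyref, and at 28 dpi Snhg9, 2310010J17Rik, BC002163, Rn45s and Ubb. Of the 91 Hba-a2 UMIs at 7 dpi under PLX5622, 73 came from 1 cell.

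Some genes lay on the same side at all 3 stages. Of 3127 genes with enough UMIs at each stage, 35 were higher under PLX5622 with an interval above 0 in all 3 and 6 were lower. Over cells with few myeloid UMIs 11 of 2003 were higher and 1 was lower. The 3 comparisons use 6 separate libraries, but this choice of genes was made after their values were seen. Mt3 had ratios of 0.93 (0.86, 1.01) in sham, 0.65 (0.60, 0.71) at 7 dpi and 0.68 (0.63, 0.74) at 28 dpi. Ubb stood at 745, 304 and 472 CPM under vehicle and 1049.7, 1039 and 1029 CPM under PLX5622, level in the PLX5622 libraries and lower after injury in the vehicle libraries. Phpt1, a histidine phosphatase, stood at 139, 119 and 129 CPM and 240.2, 279 and 273 CPM. Odf3b stood at 134, 143 and 216 CPM and 281, 306 and 346 CPM, with no overlap of the diets. Hopx stood at 228, 93.2 and 134 CPM and 378, 174 and 271 CPM, where the 7 dpi PLX5622 level lay below the vehicle sham. Mt3, Ubb, Phpt1 and Odf3b were among the 11 genes of cells with few myeloid UMIs, and Hopx was not.

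Several of these genes differed between diets in other clusters too. Ubb stood at 993, 318 and 479.9 CPM in endothelial cells under vehicle and 1166, 979 and 1006 CPM under PLX5622. In microglia Ubb stood at 547, 209.9 and 239.9 CPM and 755, 576 and 542 CPM. Arf5 stood at 32.9, 43.0 and 48.7 CPM in microglia under vehicle and 106, 117 and 72.1 CPM under PLX5622. Mt3 stood at 1967, 2471 and 2369 CPM in astrocytes under vehicle and 3681, 5570.5 and 5720.1 CPM under PLX5622. In these clusters the direction of the diet difference was that of ependymal cells. In astrocytes Arf5 was lower under PLX5622 at 28 dpi, at 26.4 CPM from 4 UMIs against 48.3 CPM from 20. A difference of diet cannot be told apart from a difference of library.

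Tmsb4x, which binds actin monomers and is high in myeloid and endothelial cells, was lower under PLX5622 at all 3 stages. It stood at 1780 CPM in sham, 5625 at 7 dpi and 6026 at 28 dpi under vehicle and 1500.3 CPM in sham, 2012 at 7 dpi and 1737 at 28 dpi under PLX5622. In cells with few myeloid UMIs it stood at 1787 CPM in sham, 3058 at 7 dpi and 2702 at 28 dpi and 1418 CPM in sham, 1722 at 7 dpi and 1671 at 28 dpi. Pnrc2, which takes part in RNA decay, stood at 165 CPM in sham, 61.2 at 7 dpi and 105 at 28 dpi and 132 CPM in sham, 96.7 at 7 dpi and 91.0 at 28 dpi, lower after injury in both diets, with a 7 dpi ratio of -1.43 (-2.03, -0.85) under vehicle and -0.45 (-1.04, 0.14) under PLX5622. With Apoe, Nnat, Ctsd, Rpl13, Tyrobp, Id4 and Arl6 these are the genes that the study names for ependymal cells. That list was chosen on these same libraries, so its values are no independent evidence.

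**Figure D5:**
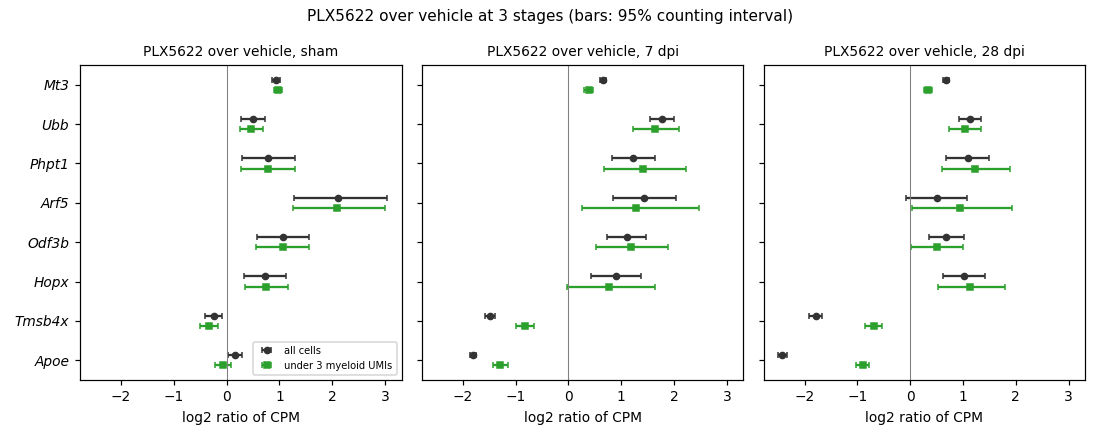
The log2 ratio of PLX5622 to vehicle is shown for 8 genes in sham, at 7 dpi and at 28 dpi, in all ependymal cells (black circles) and in cells with under 3 myeloid UMIs (green squares), with 95% counting intervals. Mt3, Ubb, Phpt1, Odf3b and Hopx lie above 0 at each stage, Tmsb4x lies below, and Apoe is near 0 in sham and below 0 after injury, less so in cells with few myeloid UMIs. Without the cells marked as doublets, not drawn, its 7 dpi ratio was 0.11, with 25 vehicle and 0 PLX5622 cells removed and 1805 of the 3176 Apoe UMIs under PLX5622 in 1 cell.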

How the data were processed

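Cells of mouse spinal cord were captured with 10x Chromium 3' chemistry. Per the labels and methods, the authors aligned reads to GRCm38 (mm10) with Cell Ranger (the file headers give 3.0.2) and clustered cells with Seurat at a resolution of 0.15 into 14 clusters. They deposited raw UMI counts per gene and cell, and a metadata table whose cluster number (unit: other) was used as given. The counts for the 21016 cells were summed over the ependymal cells of each library. The methods state limits of 200 to 3000 genes and 20% mitochondrial UMIs per cell, and no cell was removed here. Labels gave each library its group, with 1 library per condition. The 14 bulk samples were not analysed here.

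CPM used the exact Poisson interval, ratios the exact conditional binomial interval and shares the Clopper-Pearson interval. The floor for a gene at 0 was 3 UMIs. Cells were thinned to 1000 UMIs with a fixed seed. Doublets were scored with Scrublet in scanpy 1.11.5, and the cells of highest score, up to 0.8% per 1000 barcodes of a library, were marked. Python 3.11.15, numpy 2.4.6, pandas 2.3.3, scipy 1.17.1 and matplotlib 3.10.9 were used, and R 4.3.3 with edgeR 4.0.16 (TMM) and DESeq2 1.42.0 gave the alternative scalings of the deposited counts. The ratio script was tested on simulated data. Named genes were the 5 markers, the genes the study text names for ependymal cells, 2 to 4 members of each list with the highest summed level and those past the fold whose interval excludes 0, and the 5 highest and 5 lowest ratios of each comparison, ranked by the interval bound nearest 0 among genes with 50 UMIs in the pair and 5 in each. A further few were chosen after their values were seen. The members and lists were chosen with earlier results of these data known. Alternatives were 2 scalings, cells weighted alike, thinning, and leaving out cells by myeloid UMIs, doublet calls, marker UMIs or gene number.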

Additional observations from a re-analysis of the deposited data

Results flagged for a closer look

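Some gene values stood out because the injury ratios of the diets had opposite signs, and the difference is given as PLX5622 minus vehicle on the log2 scale. With 1 library per condition none of these differences was tested. At 7 dpi Foxj1 differed by 0.70 (-0.40 under vehicle, 0.30 under PLX5622). Fos differed by 2.71 (-0.54 and 2.16), where the PLX5622 sham held 8 UMIs. Fabp7 differed by 1.75 (-0.94 and 0.82), Hsp90aa1 by 0.46 (-0.38 and 0.08), Kifap3 by 1.32 (-0.54 and 0.78) and Zfp423 by 1.955 (-1.11 and 0.84), though after thinning to 1000 UMIs the ratios of Zfp423 were 0.77 and -0.60, so both signs turned. Rn45s, a ribosomal RNA precursor, differed by -0.92 at 7 dpi (0.12 and -0.80) and by 0.94 at 28 dpi (-0.31 and 0.63), so its sign turned between days. At 28 dpi Sox9 differed by 0.60 (-0.23 and 0.36), Cryab by -0.83 (0.35 and -0.49), Dzip1 by 2.35 (-0.76 and 1.59, the second of which was 0.00 with each cell weighted alike), Kifap3 by 1.72 (-0.53 and 1.19) and 2310010J17Rik by 2.18 (-0.96 and 1.22).

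The barcodes that the deposited count matrices hold but the cell table leaves out, 254 in all with at most 199 genes each, held 8 UMIs of the 5 ependymal markers among 153932 UMIs, where a count of 0 allows 3. They lay in 8 barcodes and enter no comparison.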

How the results depend on the processing

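Each value was recomputed under other choices, of which the limits of 3000 genes and of 1% myeloid UMIs per cell were added after seeing the data. Of 7857 recomputed values over 126 named genes, 6110 stayed within the counting interval of the main value and 1704 moved outside it. The remaining 43 were past the fold and changed sign. Among the values counted before them, 53 changed sign with under 50 UMIs. TMM or DESeq2 scaling changed no sign of a value past the fold. The cause of a change was not tested, beyond fewer cells and UMIs by construction.

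For the summed ciliary level, the ratios at 7 and 28 dpi under vehicle were -0.26 and -0.29 with TMM, -0.25 and -0.28 with DESeq2 size factors, -0.28 and -0.37 with each cell weighted alike, -0.16 and -0.19 in cells with under 3 myeloid UMIs, -0.15 and -0.29 without called doublets, -0.14 and -0.22 in cells under 1% myeloid UMIs, and -0.32 and -0.38 after thinning, with -0.49 at 28 dpi in cells of at most 3000 genes. Under PLX5622 the ciliary ratio at 7 dpi was -0.0255 with under 3 myeloid UMIs, -0.0411 under 1% and 0.00998 thinned, and at 28 dpi -0.10 with TMM and with DESeq2, -0.24 with cells weighted alike and -0.24 at up to 3000 genes. For PLX5622 over vehicle the ciliary ratio was -0.16 thinned in sham. At 7 dpi it was 0.12 with TMM, 0.11 with DESeq2, 0.0834 weighted alike, 0.0528 with under 3 myeloid UMIs, -0.0537 without doublets and 0.0183 under 1%. At 28 dpi it was 0.12 with TMM, 0.11 with DESeq2, 0.0453 weighted alike, -0.0572 with under 3 myeloid UMIs, 0.0173 without doublets, -0.0163 under 1% and 0.0224 thinned.

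Without called doublets (25 cells of the 7 dpi vehicle and 0 of the 7 dpi PLX5622 library), PLX5622 over vehicle at 7 dpi was 0.11 for Apoe, 0.54 for Ctsd, 0.25 for Fcer1g, 0.54 for Junb, 0.39 for Laptm5, 0.77 for Lgals1, 1.32 for Spp1, 0.55 for Trem2, 0.66 for Tyrobp and 0.17 for the myeloid list, whose sham value was -3.07. Id2 and Junb at 7 dpi under vehicle were -0.19 and -0.0432. In cells under 1% myeloid UMIs the 7 dpi PLX5622 ratio was -0.0105 for Apoe, -0.0316 for Ctsd, -0.51 for Ctss and -1.10 for Trem2, with S100a8 at -0.0428 at 28 dpi, Id2 at -0.0813 at 7 dpi under vehicle and the myeloid list at -3.07 in sham. With under 3 myeloid UMIs, Ctsd was -0.0925 and Trem2 -0.81 at 7 dpi and Laptm5 -0.48 and S100a8 -0.48 at 28 dpi under PLX5622, Pex13 was 0.0026 and Tubb5 -0.11 at 7 dpi under vehicle, and PLX5622 over vehicle was 0.69 for Lgals1 at 7 dpi, 0.31 for Grn at 28 dpi and -2.78 for the myeloid list in sham. In cells of at most 3000 genes the 7 dpi PLX5622 ratio was -0.70 for B2m, -1.15 for Ctss, -1.28 for Tyrobp and -0.30 for the myeloid list. With cells weighted alike Dzip1 was -0.53 and -0.0045 at 7 and 28 dpi under PLX5622 and 0.24 in sham, and Grn and Laptm5 were 0.40 and 0.39 at 28 dpi between diets. After thinning, Arl6 was 0.0584 at 28 dpi and Pex13 1.30 and Zfp423 0.77 at 7 dpi under vehicle, B2m -0.19 and Dzip1 -0.19 at 7 dpi and S100a6 -0.0249 and Snhg9 -0.12 at 28 dpi under PLX5622, and Bst2 0.0526, Grn 0.0734 and Laptm5 0.37 at 28 dpi between diets.

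Among cells outside the microglia, macrophage and monocyte clusters the ependymal share was 8.83%, 10.4% and 12.1% under vehicle and 16.6% and 14.2% at 7 and 28 dpi under PLX5622. The share of cells with myeloid UMIs at 7 and 28 dpi under vehicle was 46.2% and 53.3% with 2 or more, 19.6% and 23.1% with 5 or more, 62.4% and 55.3% without thinning, and 24.6% and 24.6% without doublets, where the PLX5622 sham was 0%. Counts of genes past the fold depended on the choice, from 19 to 492 upward and 14 to 470 downward at 7 dpi under vehicle (185 and 151 as reported), 25 to 492 and 1 to 356 at 28 dpi (196 and 83), 7 to 239 and 1 to 210 at 7 dpi under PLX5622 (69 and 36), and 2 to 173 and 1 to 240 at 28 dpi (35 and 36). Between diets they ran from 2 to 188 upward and 1 to 173 downward in sham (26 and 20), 4 to 274 and 16 to 366 at 7 dpi (72 and 114), and 8 to 217 and 17 to 468 at 28 dpi (55 and 145). Genes with under 50 UMIs in a pair of libraries were not called past the fold, except under the alternative minimum of 20 UMIs. Some ratios given for cells with few myeloid UMIs rest on fewer UMIs than 50. No paired analysis was possible because each condition has 1 library, so no replicate could be left out.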
